A study of Drosophila melanogaster with 3 samples.

Results

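The translation factor genes described here are the 53 protein-coding genes of Drosophila melanogaster whose symbol starts with eIF, eEF or eRF and a digit, among 13945 protein-coding genes on the main chromosome arms in the Ensembl BDGP6 annotation. They encode the initiation, elongation and release factors of cytoplasmic protein synthesis. Binding was read from chromatin immunoprecipitation followed by sequencing (ChIP-seq) of a line that expresses salr, a zinc finger transcription factor of the spalt family, with green fluorescent protein at its C terminus. All 3 libraries came from whole prepupae aged 24 hours, pooled over both sexes, and form 1 group with no second condition. The labels contradict each other: a free-text note names all 3 as input controls, while the assay title and antibody entry describe immunoprecipitates, and the assay title is followed here. In whole animals a peak in few cells and a weaker peak in many cells cannot be told apart, and the labels do not say where the tagged protein is made.

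The authors deposited peak lists on dm6: 30000 peaks for each library, 30000 for the pooled reads and 3839 in a list named for the irreproducible discovery rate (IDR). All 3839 IDR peaks were the 3839 strongest of the pooled list by signal, with the same intervals and summits, so a peak in that list need not be strong, or present, in every library. A gene was counted as having a peak when a summit lay within 1000 bp of any of its transcription start sites (TSSs). Relative signal is the deposited signal of a peak over the median of all peaks in the same list, so a value of 1 is a typical listed peak, weak peaks and background included. "Strongest" refers to the first 3839 peaks of a library, the length of the IDR list. Library 3 stood apart in its weaker peaks: its whole list reached 18 of the 53 genes, whereas those of libraries 1 and 2 reached 38 and 36. Its reach was also lower over all protein-coding genes, at 38.8%, against 53.7% and 50.7% in libraries 1 and 2. Read counts are not in the peak lists, so depth is unknown.

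Cytoplasmic initiation starts when eIF2 brings the initiator tRNA to the small ribosomal subunit, where eIF1, eIF1A and the large scaffold eIF3 are bound. The eIF4 factors recognise the mRNA cap and unwind the leader, and eIF5B joins the large subunit. eEF1 then delivers aminoacyl-tRNAs, eEF2 moves the ribosome along, and eRF1 and eRF3 end the chain. The guanine nucleotide exchange factor eIF2B recharges eIF2 and is a main control point of the pathway.

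The sequences around 5 summits are shown because they hold the strongest peak of the group, its most A/T-rich summit and all 3 summits with the word TATCGATA. Each runs 50 bp to either side of the summit on the forward strand of dm6, was read from the RefSeq Release 6 genome, and has in capitals every match to 6 words searched on both strands (AATATT and the A/T-rich AAATAT, the promoter words TATCGATA and GGTCACAC, the E-box CACGTG and the GAGA factor word GAGAGA).
eIF2Bbeta, chrX:2703835-2703935: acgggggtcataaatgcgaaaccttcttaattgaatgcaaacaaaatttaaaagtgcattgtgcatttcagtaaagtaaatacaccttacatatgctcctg
eIF4EHP, chr3R:24109201-24109301: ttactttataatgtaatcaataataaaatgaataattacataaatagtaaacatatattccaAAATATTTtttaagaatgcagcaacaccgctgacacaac
eEF1gamma, chr3R:29220122-29220222: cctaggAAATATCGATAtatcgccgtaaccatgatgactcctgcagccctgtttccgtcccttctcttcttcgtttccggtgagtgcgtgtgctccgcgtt
eIF1, chr3L:3222952-3223052: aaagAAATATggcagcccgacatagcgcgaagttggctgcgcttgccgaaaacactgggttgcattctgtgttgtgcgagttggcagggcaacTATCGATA
eIF3a, chr3R:4433884-4433984: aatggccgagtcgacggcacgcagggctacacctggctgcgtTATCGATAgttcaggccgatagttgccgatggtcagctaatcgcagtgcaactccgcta
At eIF2Bbeta no searched word was present. At eIF4EHP the capitals are AATATT with overlapping copies of AAATAT, in a window with 22.8% G and C. At eEF1gamma AAATAT overlaps TATCGATA, the DNA replication-related element (DRE) bound by the factor DREF, and at eIF1 and eIF3a TATCGATA stands alone or apart from AAATAT.

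Of the 53 translation factor genes, 12 (22.6%) had an IDR peak, against 14.8% of all protein-coding genes. They were eIF1, eIF2Bbeta, eIF2Bdelta, eIF3a, eIF3h, eIF4A, eIF4EHP, eIF5B, eIF6, eEF1alpha1, eEF1gamma and eEF5. A 95% Wilson interval, which treats the 53 genes as independent draws, ran from 13.5% to 35.5% and contains the share of all protein-coding genes. The members are not replicates, so the interval does not measure error between libraries, and no test was made of the list. Weighting protein-coding genes by the members' length class and number of TSSs put the share at 16.5%, or 8.73 genes. When each summit was given only to the gene with the nearest TSS, 6 members (11.3%) kept an IDR peak, against 10.6% of protein-coding genes.

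The libraries gave similar counts one by one. Among the strongest peaks, 13 members had a summit in library 1, against 16.6% of protein-coding genes, 12 in library 2, against 13.8%, and 11 in library 3, against 13.0%. At the shares for their length and TSS number the members would number 9.65, 8.11 and 7.65 in libraries 1, 2 and 3. The observed mean was 12.0 ± 1.00 members (SD, n = 3), or 22.6% ± 1.89, against 14.5% ± 1.85 of protein-coding genes (SD, n = 3). The members' share exceeded that of protein-coding genes in every library, by 8.18 ± 0.568 percentage points (SD, n = 3). The same 53 genes were counted each time, so this error covers only the difference between libraries. For 9 members (17.0%) the strongest peaks of all 3 libraries had a summit, against 8.23% of protein-coding genes, and for 16 members those of at least 1 library did (30.2%, against 21.6%). The summits of the 3 libraries need not lie at the same place. At eEF1alpha1 the best library 2 summit ranked 2935, but the one matched to its IDR peak ranked 6336.

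The longer lists, which hold the weaker peaks too, gave mixed results. In the pooled list 26 members (49.1%) had a peak, against 44.4% of protein-coding genes and 25.1 members (47.3%) at the shares for their length and TSS number. In the whole lists, 38 members (71.7%) had one in library 1, against 53.7%, and 36 (67.9%) in library 2, against 50.7%. In library 3 the order was the opposite, with 18 members (34.0%) against 38.8%. At the shares for length and TSS number the whole lists would reach 30.1, 28.6 and 21.7 members in libraries 1, 2 and 3.

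**Figure D1:**
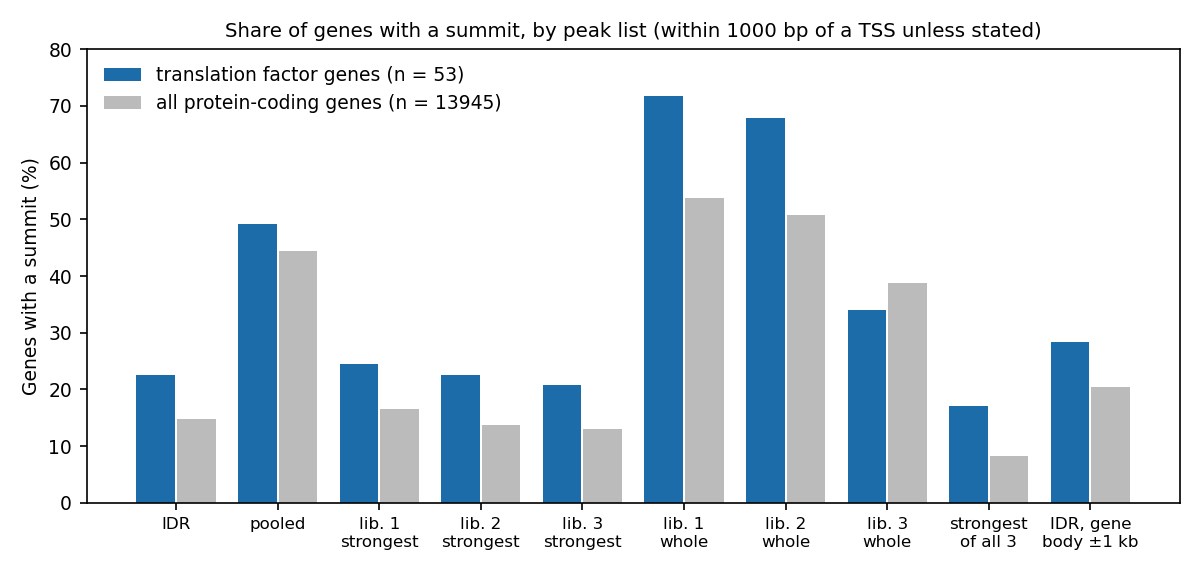
Percentage of genes with a summit in each peak list (y axis), for the 53 translation factor genes (blue, left) and all 13945 protein-coding genes (grey, right); bars are single percentages. The blue bar is higher in the IDR list (22.6% against 14.8%) and in the strongest peaks of each library, but lower in the whole list of library 3 (34.0% against 38.8%).

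The share with a peak was higher among genes with more TSSs and among longer genes, among members and among all protein-coding genes, with no test made. Of 31 members with a single TSS, 5 had an IDR peak, against 10.2% of protein-coding genes with 1 TSS. Of 18 members with 2 TSSs, 5 did, against 22.7%, and of the 4 with 3 or more, 2 did, against 38.0%. By length, 5 of 18 long members (over 3534 bp) had a peak, against 23.5% of protein-coding genes of that class. The counts were 5 of 21 at middle length, against 13.2%, and 2 of 14 short members (up to 1465 bp), against 7.68%.

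The role groups are small, so their counts are listed with no comparison. Elongation factors had 3 of 7, subunit joining factors 2 of 3, eIF2B 2 of 5, the start codon scanning factors 1 of 2, eIF3 2 of 16 and the eIF4 group 2 of 13. None (0) of the 5 initiator tRNA delivery factors (eIF2alpha, eIF2beta, eIF2gamma, eIF2A and eIF2D) and 0 of the 2 release factors had one. At the background share of 14.8%, a group of 5 genes or fewer would hold less than 1 such gene.

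**Figure D2:**
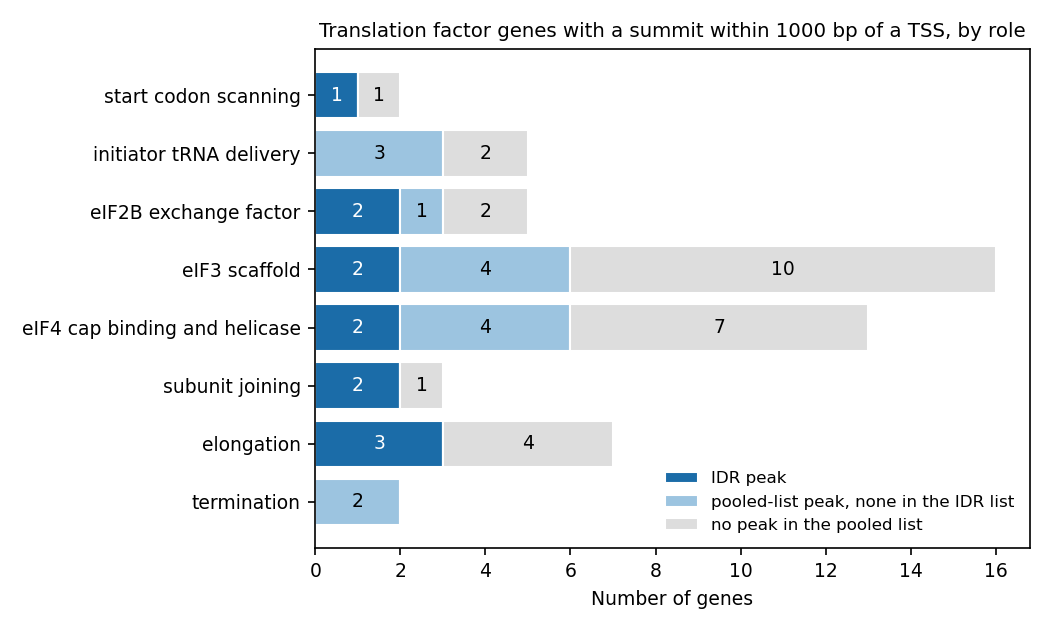
Number of translation factor genes (x axis) in each role group (rows), split into genes with an IDR peak (dark blue), genes with a peak in the pooled list only (light blue) and genes with neither (grey). The eIF3 group is the largest with 16 genes, of which 2 had an IDR peak and 10 had no pooled peak.

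Among the start codon scanning genes, eIF1, whose product keeps the scanning ribosome open until a start codon is met, had an IDR peak (3L, 3222902 to 3223102, rank 357 of the IDR list). Its relative signal was 8.26, 5.12 and 11.0 in libraries 1, 2 and 3, a mean of 8.11 ± 2.92 (SD, n = 3). The summit lay in intergenic sequence 339 bp upstream of the eIF1 TSS but only 42 bp upstream of RpL28, a ribosomal protein gene transcribed the other way, and 3 snoRNA genes had a TSS in the window as well. The companion factor gene eIF1A had no pooled peak, and its best summits in libraries 1 and 2 had relative signals of 1.30 and 0.858.

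Within eIF2B, the beta subunit gene carried the strongest peak of the whole group (X, 2703730 to 2704043). It ranked 2 in the IDR list and 2 in every library, with relative signals of 41.2, 37.3 and 44.5. The 3 libraries lay close together here. The summit was 686 bp upstream of eIF2Bbeta and 33 bp upstream of Ugalt, the divergent neighbour, so the peak sits at the Ugalt end of the 719 bp between both TSSs. The delta subunit gene eIF2Bdelta had a far weaker peak (2R, 23385641 to 23385984, rank 2832), with relative signals of 1.80 and 2.05 in libraries 1 and 2 and no match in library 3. Its summit, 708 bp upstream, fell in the 3 prime UTR of roh and lay closer to CG30414. The remaining subunit genes eIF2Balpha, eIF2Bgamma and eIF2Bepsilon had none in the IDR list.

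In eIF3, the scaffold on the small subunit, the peaks were at eIF3h and eIF3a. At eIF3h (2L, 5052400 to 5052519, rank 1305) the summit was intronic, 286 bp downstream of a TSS, and relative signals were 3.92, 4.37 and 4.75. No library departed much from the mean of 4.35 ± 0.415 (SD, n = 3). At eIF3a (3R, 4433762 to 4434105, rank 3094) relative signals were 2.34 in library 1 and 1.70 in library 2, with no match in library 3. The summit lay between eIF3a and CG1074, 39 bp from the first TSS and 31 bp from the other. Of the remaining 14 eIF3 genes, 4 had a weaker pooled peak (eIF3b, eIF3d1, eIF3g2 and eIF3k) and 10 had none.

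In the eIF4 group the strongest peak was at eIF4EHP (3R, 24109040 to 24109365, rank 126), which encodes a cap-binding relative of eIF4E known as a translational repressor in the fly embryo. Relative signals were 12.7, 9.87 and 19.8, a mean of 14.1 ± 5.09 (SD, n = 3), with library 3 highest. The summit was intergenic, 291 bp upstream of eIF4EHP and 85 bp upstream of CG18428. The helicase gene eIF4A had 2 IDR peaks, the stronger at an internal TSS (2L, 5982333 to 5982676, rank 3194, 89 bp upstream, in its own 5 prime UTR) with relative signals of 3.52, 1.65 and 2.34. The second, at the first TSS (2L, 5981504 to 5981847, rank 3566, 88 bp upstream), was matched in libraries 1 and 3 only, at 3.08 and 2.84, and was also within reach of the profilin gene chic. The cap-binding genes eIF4E1, eIF4E3, eIF4E4, eIF4E5, eIF4E6 and eIF4E7 and the scaffold gene eIF4G1 had no IDR peak, and at eIF4G2 the best pooled summit ranked 3936, just outside the IDR list, with a pooled relative signal of 2.44.

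Among subunit joining genes, eIF6, whose product keeps the ribosomal subunits apart, had the second strongest peak of the group (2R, 23850275 to 23850546, rank 24). Its relative signals of 27.4, 23.2 and 23.9 gave a mean of 24.8 ± 2.25 (SD, n = 3), again with little spread. The summit was 109 bp upstream of eIF6, in an intron of ytr and an exon of the antisense gene asRNA:CR45928, whose TSS was 80 bp away. At eIF5B (3L, 3460721 to 3460819, rank 933) relative signals were 4.15, 3.89 and 7.05, and the summit, in its own 5 prime UTR, was 140 bp upstream of a TSS. The GTPase activator gene eIF5 had no peak in any list.

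The elongation genes with a peak were eEF1alpha1, eEF1gamma and eEF5, and in all 3 the member had the nearest TSS. At eEF1gamma (3R, 29220036 to 29220249, rank 228) the summit coincided with the TSS, at a distance of 0 bp, and relative signals were 13.1, 7.02 and 11.6. At eEF5, the gene of the hypusine-containing factor formerly called eIF5A (2R, 24057608 to 24057951, rank 966), the summit was 18 bp upstream and relative signals were 6.74, 3.16 and 5.44. At eEF1alpha1 (2R, 11891967 to 11892125, rank 1227), which encodes the carrier of aminoacyl-tRNA, the summit was 61 bp upstream of an internal TSS and relative signals were 5.01, 1.64 and 7.18. Library 2 was lowest at all 3 genes. The translocase gene eEF2 had none in the IDR or pooled list. Its best summit ranked 1223 in library 1 (relative signal 4.59), against 21580 in library 2 (0.794) and none in library 3. The paralog eEF1alpha2 showed a similar split, with rank 2856 in library 2, rank 22313 in library 1 and none in library 3. At both genes these are each library's own best summits, which need not lie at the same place.

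**Figure D3:**
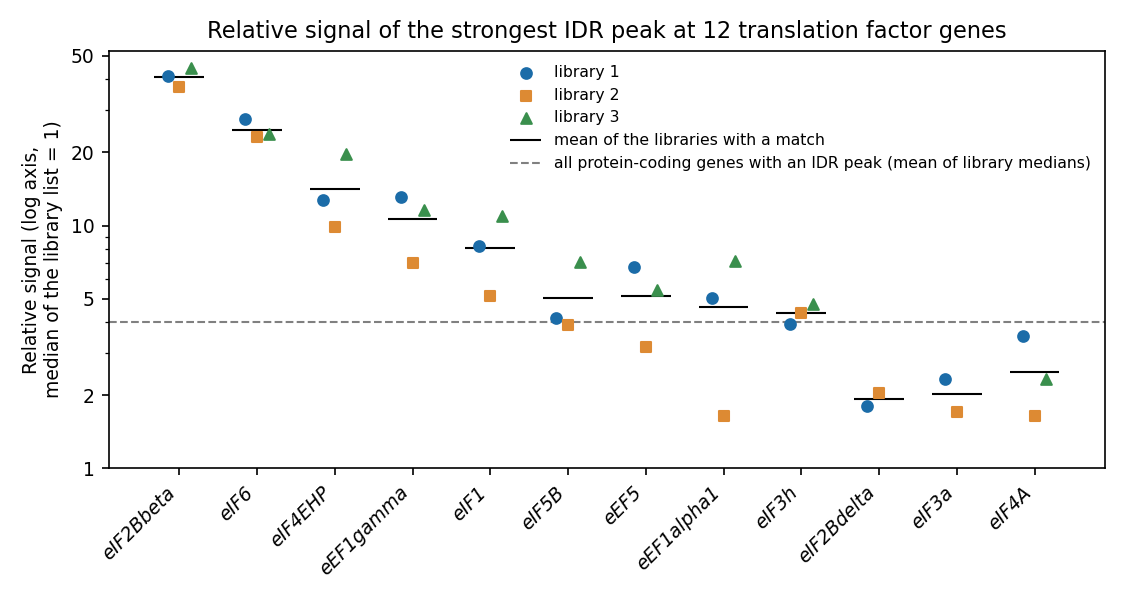
Relative signal (log y axis, the median peak of a library's list = 1) of the strongest IDR peak at each of the 12 genes that had one (x axis, in order of IDR rank); symbols are libraries 1, 2 and 3, black lines the mean of the matched libraries, and the dashed line the mean of library medians over all protein-coding genes with an IDR peak, 4.01. eIF2Bbeta and eIF6 stand highest with means of 41.0 and 24.8, and library 2 is lowest at 9 of the 10 genes matched in all 3 libraries. Each library median leaves out genes with no match in that library.

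Relative signal ranged widely among the 12 genes, from a mean of 1.93 at eIF2Bdelta to 41.0 at eIF2Bbeta. The median over those matched in a library was 5.87, 4.13 and 9.07 in libraries 1, 2 and 3, a mean of 6.36 ± 2.51 (SD, n = 3). In library 3 it leaves out eIF2Bdelta and eIF3a, which had no match there and the lowest means of the 12. Its median, and with it the mean and SD, is therefore raised. Among the 2064 protein-coding genes with an IDR peak the medians, again over those matched, were 3.99, 3.14 and 4.89, a mean of 4.01 ± 0.874 (SD, n = 3). The members' median was higher in each library, while the errors of both means overlap. Both sets put the libraries in the same order, so these errors are not those of the paired difference, which was not tested. The strongest peak was matched in all 3 libraries for 10 of 12 members (83.3%) and for 77.5% of protein-coding genes with an IDR peak. Another gene had the nearer TSS at eIF2Bbeta, eIF6, eIF4EHP and eIF1, among the strongest, and at eIF2Bdelta and eIF3a, the weakest. No median is given here for the other members alone.

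The release factor genes had weaker peaks that differed between libraries. At eRF3, the GTPase that works with eRF1, the best pooled summit ranked 4825. The best summit of each library, which need not lie at the same place, had relative signals of 1.54, 2.21 and 2.91. It was among the strongest peaks in libraries 2 and 3 but not in library 1. At eRF1 the best pooled summit ranked 8041. Besides eRF3, eEF2 and eEF1alpha2, the genes with a strongest-list summit in some library but no IDR peak were eIF2A (rank 2078 in library 2) and eIF4B (rank 3564 in library 1). That makes 5 of the 41 members without an IDR peak. In all, 14 of these 41 had a pooled peak, with pooled relative signals from 0.699 to 2.44. Neither count was set against protein-coding genes without an IDR peak. With all genes counted, those with an IDR peak included, 26 members (49.1%) had a pooled peak, against 44.4% of protein-coding genes. The pooled list holds every IDR peak. Of 13945 protein-coding genes 6188 had a pooled peak and 2064 an IDR peak, so 49.1% against 44.4% shows no excess among the 41. A strongest-list summit in at least 1 library was at 16 members (30.2%), against 21.6%. A summit in at least 1 list of any kind was at 46 of the 53 members (86.8%), against 71.9% of protein-coding genes. The 7 with none were eIF2alpha, eIF3d2, eIF3g1, eIF3j, eIF4E5, eIF4G1 and eIF5.

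Some members had IDR peaks elsewhere in or beside the gene. With the whole gene and 1000 bp of flank counted, 15 members (28.3%) had an IDR peak, against 20.4% of protein-coding genes, and the 3 added genes were eIF2beta, eIF2A and eIF4G2. The peak beside eIF2beta (3L, 12524162 to 12524349) was strong, with relative signals of 8.33, 6.41 and 11.4, but lay 2492 bp from its TSS, in an intron of ver and within 1000 bp of the TSSs of ver and the acetyltransferase gene Gcn5. The peak beside eIF2A (3L, 21828143 to 21828486) fell in the 5 prime UTR of CG32448. At eIF4G2 (3R, 23817567 to 23817910) it was intronic, 1080 bp downstream of a TSS and also within introns of CG33111 and CG34355, with relative signals of 4.08, 2.99 and 3.12. The long genes eIF5B and eIF4EHP held further weak intronic peaks, 18304 and 16159 bp into eIF5B and 9822 bp into eIF4EHP.

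Many of the peaks were within reach of another gene's TSS as well. For 9 of the 12 members (75.0%) the strongest IDR peak was also within 1000 bp of the TSS of another protein-coding gene, against 56.1% of protein-coding genes with an IDR peak, and for 8 (66.7%, against 52.0%) that neighbour lay upstream on the opposite strand. The member had the nearest TSS in 6 of 12 cases, against 69.9% of protein-coding genes with an IDR peak. At eIF2Bbeta, eIF4EHP and eIF1 the summit was within 100 bp of the neighbour's TSS and over 200 bp from the member's. In a 500 bp window the peaks shared with any other gene numbered 5, of 10 members with a peak. By annotation 5 of the 12 summits were intergenic (eIF2Bbeta, eIF4EHP, eIF1, eEF5 and eIF3a). No peak was shared by 2 members. The deposited lists cannot assign such a peak to one of the genes.

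**Figure D4:**
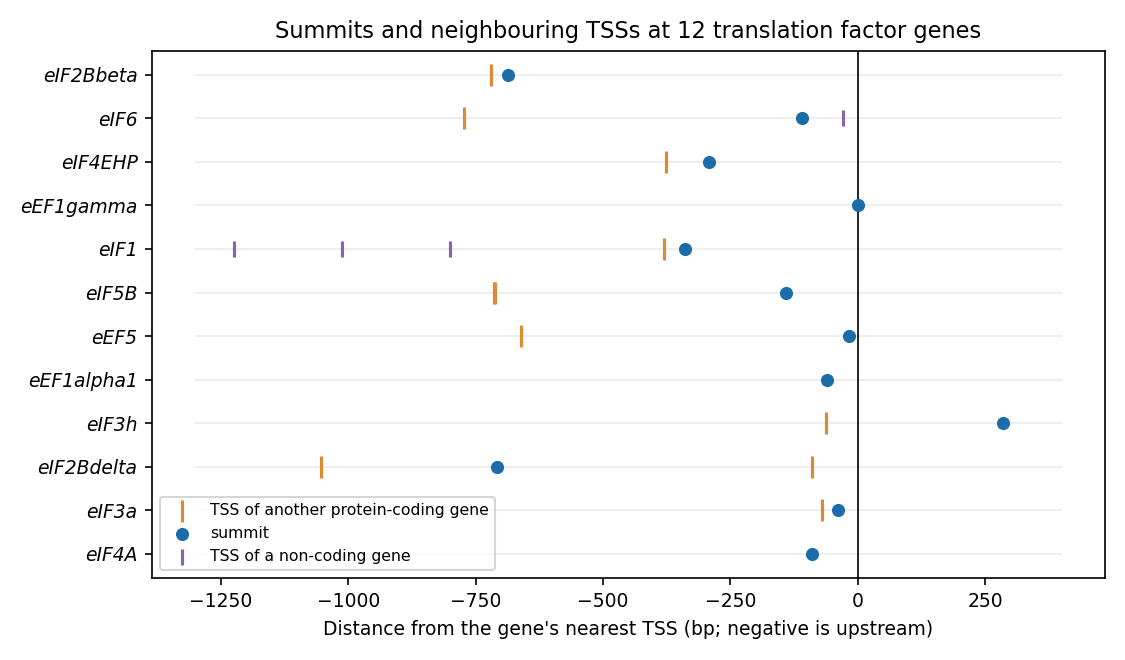
Position of the strongest IDR summit (blue point) relative to the nearest TSS of the member (0, black line; x axis in bp, negative upstream) for the 12 genes (rows), with TSSs of other genes within 1000 bp of the summit as orange (protein-coding) and purple (non-coding) ticks. At eIF2Bbeta, eIF4EHP and eIF1 the summit is beside the neighbour's TSS, whereas at eEF1gamma and eEF5 it is at the member's own.

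Summits were upstream of the member's TSS in 10 of 12 cases (83.3%), against 80.5% of protein-coding genes with an IDR peak, and within 200 bp upstream in 6 (against 43.8%). The median position was 99.0 bp upstream for members and 139 bp upstream for protein-coding genes. Measured from each library's own summits, the members' median was 89.5, 109 and 110 bp upstream.

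Sequence at the members' summits was on average less A/T-rich than at all IDR peaks within 1000 bp of a protein-coding TSS. Mean GC content within 50 bp was 46.0% ± 10.4 (SD over 12 peaks), with a range of 22.8% to 60.4%, against 37.6% ± 10.2 over all 1713 IDR peaks at protein-coding genes. AATATT, similar to the A/T-rich DNA that the vertebrate relative SALL4 binds, was at 2 of 12 summits (16.7%, against 12.7%), those of eIF6 and eIF4EHP, and AAATAT at 5 (41.7%, against 27.0%). TATCGATA was at 3 summits (25.0%, against 2.34%, or 40 of 1713), those of eEF1gamma, eIF1 and eIF3a, 34 to 41 bp before, 43 to 50 bp after and 1 to 8 bp before the summit on the forward strand. GGTCACAC, the core of a promoter element called Motif 1, was at 2 (16.7%, against 1.58%), those of eEF1alpha1 and eIF2Bdelta. CACGTG, the E-box of Myc-type factors (0.934% of all), and GAGAGA (5.66% of all) were at 0 of the 12. A match is a run of letters and was not tested as a site, and at eIF1 and eIF3a the same window serves RpL28 and CG1074. The eIF2Bdelta summit is 708 bp upstream of its TSS, in the 3 prime UTR of roh. Neither GGTCACAC at eIF2Bdelta nor TATCGATA at eIF1 lay between 250 bp upstream and 50 bp downstream of the gene's own TSSs.

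The same words were looked for in the promoters of all 53 members, from 250 bp upstream to 50 bp downstream of each TSS. TATCGATA was in 16 of the 53 (30.2%), against 10.2% of protein-coding genes, and GGTCACAC in 9 (17.0%, against 8.71%). AATATT was in 25 (47.2%, against 35.1%), AAATAT in 36 (67.9%, against 59.1%) and CACGTG in 5 (9.43%, against 5.34%). GAGAGA was in 7 (13.2%), below the 17.1% of protein-coding genes. TATCGATA was in 5 of 12 members with an IDR peak (41.7%: eIF2Bbeta, eIF3a, eIF4A, eIF6 and eEF1gamma) and in 11 of 41 without one (26.8%), among them eIF1A, eIF2alpha, eIF2gamma and eRF1. Over all protein-coding genes the shares were 12.7% with an IDR peak and 9.73% without, and neither difference was tested. Among all protein-coding genes with TATCGATA in the promoter, 18.5% had an IDR peak. Every other word was less frequent in members with an IDR peak than in those without, the reverse of protein-coding genes, but 2 words were nearly level. GGTCACAC was in 2 of 12 (16.7%) and 7 of 41 (17.1%; protein-coding genes 13.1% and 7.95%). CACGTG was in 1 of 12 (8.33%) and 4 of 41 (9.76%), against 6.98% and 5.05%. AATATT was in 33.3% of members with a peak and 51.2% without (protein-coding genes 41.5% and 34.0%). AAATAT was in 58.3% and 70.7% (68.8% and 57.4%), and GAGAGA in 8.33%, which is 1 gene, and 14.6% (26.9% and 15.4%). These differences were not tested either. The TCT initiator, a polypyrimidine start site element typical of ribosomal protein and translation factor genes (CCTTTC or CCTTTT, or with T first TCTTTC or TCTTTT, on the gene strand within 10 bp of a TSS), was at 7 members (13.2%), against 3.03% of protein-coding genes. These were eIF3f1, eIF3i, eIF3m, eIF4A, eEF1delta, eEF2 and eEF5. On the opposite strand it was at 0 members and at 2.07% of protein-coding genes. Of the 7 members, eIF4A and eEF5 had an IDR peak, and 30.6% of all protein-coding genes with the element (129 of 422) did.

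Outside the named factors, 36 other genes of translation and its control were listed, of which 32 were found in the annotation by symbol. An IDR peak was at 8 of them (25.0%), against the same 14.8% of protein-coding genes. The list was written with earlier results of these data known, so this share is not independent support. No share for their length and TSS number was computed. The stronger part of the IDR list left 4 of the 32, against 8.47% of protein-coding genes. Set beside 41.0 ± 3.63 at eIF2Bbeta (SD, n = 3), Lk6, the kinase of eIF4E, had a relative signal of 36.4 ± 3.47 (SD, n = 3) and larp, an RNA-binding regulator of mRNAs for the translation machinery, 31.5 ± 1.38 (SD, n = 3). The poly(A)-binding protein gene pAbp had 9.60, 10.2 and 11.3. The others were weaker. They were orb (4.12 ± 1.64, SD, n = 3), Pdcd4, an inhibitor of eIF4A (4.94 and 4.04 in libraries 2 and 3), Paip2, an inhibitor of pAbp (2.31 ± 0.586, SD, n = 3), Dhps, which starts the hypusine modification of eEF5 (1.38 and 4.51 in libraries 1 and 3), and the selenocysteine elongation factor gene eEFSec (1.02, 3.67 and 1.55). No IDR peak was listed at Thor, the eIF4E-binding repressor, at the eIF2 kinase genes Gcn2 and PEK, or at the 7 mitochondrial translation factor genes mEFG1, mEFTs, mEFTu1, mEFTu2, mIF2, mIF3 and mRF1.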

How the data were processed

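The authors deposited peak lists on dm6, per the labels and the deposited notes; each was derived with the same control file, and the name of the peak caller is not given in the sources used here. Each peak's deposited signal is a value on an unstated scale. It ranked peaks within a list and was divided by that list's median. The deposited −log10 q-value set no threshold. Coordinates are 1-based. Genes and TSSs came from Ensembl BDGP6.54 release 115 without transposable elements (18164 genes on 6 arms), and sequence from RefSeq Release 6, the same assembly, whose arm lengths hold every peak. IDR summits were matched to library summits within 100 bp. For strata, protein-coding genes were split into 3 equal length classes and 1, 2, or 3 or more TSSs.

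With 1 group and members that are not replicates, no test was run; values are descriptions beside all protein-coding genes. The library was the replicate. The gene lists, words and members were chosen with earlier results of these data known, and the promoter word search was added after the summit words were seen. Every member with an IDR peak is named. On simulated summits, 200 of 200 planted at known distances were assigned as planted, over 18164 genes. Listed symbols that were not matched (4 of 36) were not analysed here. Alternatives covered windows, summit assignment, signal scale, list length, matching distance and each library left out. Computation used scipy 1.17.1, pandas 2.3.3 and numpy 2.4.6 in Python 3.11.15, and figures matplotlib 3.10.9. Wilson intervals are at the 95% level.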

Additional observations from a re-analysis of the deposited data

How the results depend on the processing

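No paired analysis was possible because all 3 samples share one condition. How depth limits these counts could not be measured from peak lists. Of 48 recomputed values, 40 stayed within 1.5 times the count or 1 SD of the value, and 0 reversed. Most are counts, which cannot change sign, so the absence of reversals says little. The whole library lists were not among them, and in that of library 3 the members' share was lower (34.0% against 38.8%). Giving each summit to the nearest TSS left 6 members with an IDR peak. The ratio of the members' share to that of protein-coding genes was then 1.07, against 1.53, a fall still counted within the 40. The ratio ran from 1.37 to 2.01 in the other settings. With IDR peaks limited to those strong in both other libraries, 8 to 10 members kept one; eIF2Bdelta and eIF3a were lost in every case, and eEF1alpha1 and eIF4A without library 1 or library 3. The 8000 strongest peaks gave 19.0 members per library, a count with no share of protein-coding genes beside it. The median relative signal was 1.76 when scaled to the strongest peaks (1.13 over protein-coding genes), and ran from 5.0 to 7.47 with a library left out. The median summit distance was -28.5 bp from the most upstream TSS and -75.0 bp in a 500 bp window, where 5 peaks were shared with another gene. The stronger part of the IDR list left 4 of the 32 other translation genes, against 8.47% of protein-coding genes. AATATT was at 4 members' summits with 100 bp on each side.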
